A study of Mus musculus with 12 samples.

Results

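The 9 regulators of the podosome and the actin ring described here are Src, Ptk2b, Vav3, Pxn, Cttn, Gsn, Sh3pxd2a, Dock5 and Myo10. They were chosen by gene symbol, with earlier results of these data known, and all 9 were found among the 16570 genes of the deposited table. Their counts and medians beside those of all genes are therefore a description and not a test. RNA was sequenced in 12 libraries of macrophages grown from the bone marrow of C57BL/6J mice aged 6 to 8 weeks, in 4 groups of 3. Marrow cells of every group were first held for 2 days in M-CSF (50 ng/mL), the survival factor of macrophages. The M-CSF group then had M-CSF alone for 2 days. The RANKL group had M-CSF and RANKL (100 ng/mL), the cytokine that drives macrophages to become osteoclasts, for the same time. The other 2 groups had M-CSF, RANKL and 1 µM of an inhibitor: BMS309403, known to block the fatty acid binding protein FABP4, or RHC80267, known to block diacylglycerol lipase. A growth protocol in the labels names 4 days of RANKL, whereas the treatment labels name 2 days, which are used here. No group had an inhibitor without RANKL. Whether the 3 libraries of a group came from different mice or cultures is not stated in the labels. The p-values therefore reflect the spread among these libraries alone, and that spread may be technical.

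Podosomes are small contacts that macrophages and osteoclasts form with the surface below them, each with a core of branched actin and a ring of integrins and adhesion proteins. In an osteoclast on bone they pack into a belt, the actin ring or sealing zone, that closes off the site where acid and proteases are released. Integrin engagement activates the tyrosine kinases Src and Pyk2, which act through adaptors and through exchange factors for Rac to build and turn over the actin. Osteoclasts that lack Src form but resorb bone poorly.

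All 9 genes passed the filter on low counts and had between 27 and 9612 counts per library, with totals of 17760844 to 18344989 expected counts. Levels are given in CPM (counts scaled to a common library size, with sizes adjusted by edgeR's TMM method), in the order of the replicate numbers. Differences are log2 fold changes ± SE from edgeR's quasi-likelihood test over 12168 genes. A gene is called, and is said to have risen or fallen, where its Benjamini-Hochberg adjusted p is below 0.05. All adjusted p-values below are of that kind. The RANKL, BMS309403 and RHC80267 comparisons share the RANKL libraries, and RHC80267 was also set directly against BMS309403. Overlap of groups is described for single members, and the share of all tested genes without overlap was not counted in any comparison.

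The cultures were checked against their labels by markers. All 8 macrophage markers had counts in every group, summing to 30510 to 31000 CPM with M-CSF and 23790 to 25470 CPM with RANKL. Taken singly, 7 of them fell with RANKL (29.8% of all tested genes did) and 1 was not called. The 8 osteoclast markers summed to 93.4 to 111 CPM with M-CSF, 8109 to 10060 CPM with RANKL, 6620 to 7463 CPM with BMS309403 and 15860 to 17930 CPM with RHC80267. Libraries labelled osteoclast thus held both kinds of transcript at 2 days. In bulk RNA a smaller number of cells of a type and less RNA per cell cannot be told apart.

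Promoter sequence is shown for Gsn, which was not called with RANKL, and Myo10, which rose. The first Gsn window lies outside annotated exons, and the first Myo10 window is printed for its 225 bases that do, without the rest, which overlaps an annotated Myo10 exon. RefSeq's promoter table (GRCm38.p6) held 4 of the 9 members (Gsn, Src, Vav3 and Myo10), with 9 start sites among them. The 250 bases before each start were searched on both strands for TGANTCA (AP-1), GGAAA (the NFAT core), GAGGAAG (PU.1) and CANNTG (the E-box). GAGGAAG does not contain GGAAA. Gsn is shown from chr2:35256109-35256358 and Myo10 from chr15:25622300-25622524, both on the plus strand and written 5′ to 3′. Capitals mark matches.
Gsn: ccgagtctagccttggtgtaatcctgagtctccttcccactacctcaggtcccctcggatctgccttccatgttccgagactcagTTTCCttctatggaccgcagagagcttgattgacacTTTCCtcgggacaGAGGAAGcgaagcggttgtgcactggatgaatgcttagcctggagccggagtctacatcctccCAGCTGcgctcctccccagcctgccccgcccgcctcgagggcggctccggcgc
Myo10: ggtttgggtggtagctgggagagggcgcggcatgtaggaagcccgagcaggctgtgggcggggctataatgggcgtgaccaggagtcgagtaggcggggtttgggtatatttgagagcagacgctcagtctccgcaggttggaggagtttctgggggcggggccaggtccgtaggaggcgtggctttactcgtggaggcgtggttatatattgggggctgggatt
The printed Gsn window held 2 NFAT cores on the minus strand, 165 and 129 bases before the start, 1 PU.1 match and 1 E-box. Its second window held 2 E-boxes, and the third 1 NFAT core and 2 E-boxes. Myo10's first window held none of the 4 motifs, and its second held 1 NFAT core, 211 bases before the start. In the only Src window, where 82.8% of the bases were G or C, 1 PU.1 match lay 109 bases before the start on the minus strand. The single AP-1 match among the 9 windows lay before the third Vav3 start, 114 bases away, in a window that also held 1 NFAT core and 2 E-boxes. The other Vav3 windows held no match. The Src window, every Vav3 window and the second Myo10 window overlap annotated exons of the same gene, so their matches may lie within transcribed sequence. Of 32851 windows of the same length in the table, 6.75% held the AP-1 letters, 55.6% the NFAT core, 10.6% the PU.1 letters and 66.2% the E-box. Such matches are letters in a window and were not tested as binding sites.

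With RANKL, 6 of the 9 regulators rose, 2 fell and 1 was not called, in a comparison where 61.2% of all tested genes were called (31.4% higher and 29.8% lower). The median log2 fold change of the 9 was 0.74, against 0.00 over all genes tested. Src rose most, 25.0-fold, followed by Cttn, Dock5, Myo10, Sh3pxd2a and Pxn. The 2 that fell, Ptk2b and Vav3, were already well expressed in the macrophages, with means of 244.7 and 87.5 CPM. So were Pxn (217.4 CPM), which rose, and Gsn (478.5 CPM), the member not called.

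**Figure D1:**
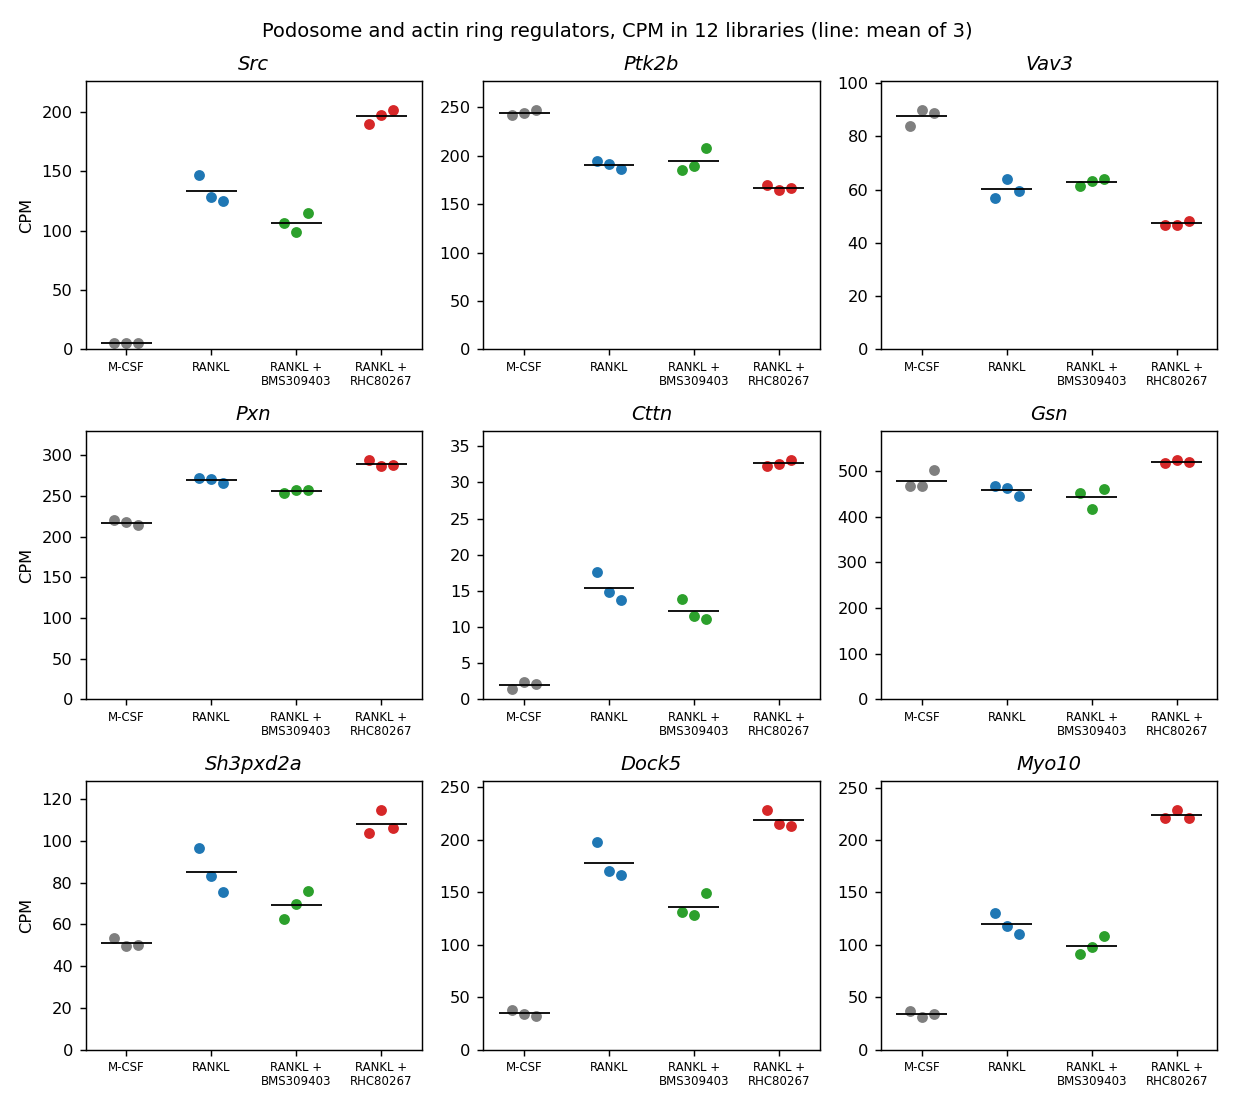
CPM of the 9 regulators in each of the 12 libraries; the y axis of each panel starts at 0, points are libraries in replicate order and lines are group means. Src, Cttn, Dock5 and Myo10 are low with M-CSF and highest with RHC80267, Ptk2b and Vav3 are highest with M-CSF, and Gsn stays between 417 and 524 CPM in all 12 libraries.

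Src encodes the kinase at the head of podosome signalling (gene ID 20779, chromosome 2, 157423906 to 157471838). It stood at 5.66, 5.37 and 4.94 CPM in the M-CSF libraries, a sum of 285 counts. In the RANKL libraries it stood at 147, 128 and 125 CPM. With BMS309403 its levels were 106, 98.8 and 115 CPM, and with RHC80267 they were 190, 198 and 202 CPM. No 2 groups overlapped, and their order from low to high was M-CSF, BMS309403, RANKL, RHC80267. The rise with RANKL was 4.65 ± 0.09 on the log2 scale (adjusted p = 8.3e-21), the 108th highest of the 12168 genes.

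Ptk2b encodes Pyk2, the kinase that binds Src at integrin contacts (gene ID 19229, chromosome 14, 66153257 to 66281100). Its CPM was 242, 245 and 248 with M-CSF, then 194, 192 and 186 with RANKL. With BMS309403 it was 185, 190 and 209, which spans the RANKL libraries. The RHC80267 libraries were the lowest, at 170, 165 and 167 CPM. Ptk2b fell by 0.36 ± 0.04 on the log2 scale with RANKL (adjusted p = 9.1e-08). Src and Ptk2b, which act in the same complex, thus moved in opposite directions.

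Dock5 and Vav3 encode exchange factors that load the small GTPase Rac with GTP. Dock5 (gene ID 68813, chromosome 14, 67751928 to 67933572) measured 37.9, 34.2 and 31.7 CPM with M-CSF and 198, 170 and 167 CPM with RANKL. The BMS309403 libraries held 131, 128 and 149.5 CPM, and the RHC80267 libraries 228, 215 and 213 CPM. As for Src, the 4 groups did not overlap, and RANKL raised Dock5 by 2.36 ± 0.07 (adjusted p = 3.8e-17). Vav3 (gene ID 57257, chromosome 3, 109340465 to 109685694) ran the other way, with 83.9, 90.0 and 88.6 CPM under M-CSF and 56.8, 64.1 and 59.5 CPM under RANKL. It was 61.2, 63.2 and 64.0 CPM with BMS309403, inside the RANKL range, and 46.7, 46.9 and 48.3 CPM with RHC80267, below every other library. With RANKL Vav3 fell by 0.54 ± 0.05 (adjusted p = 1.1e-09).

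Pxn and Sh3pxd2a encode platforms on which other podosome proteins assemble. Pxn, for the adhesion adaptor paxillin (gene ID 19303, chromosome 5, 115491970 to 115555987), was at 220.2, 218 and 214 CPM with M-CSF and 272, 271 and 266 CPM with RANKL. It was at 254, 257 and 258 CPM with BMS309403 and at 295, 288 and 288 CPM with RHC80267. Its 4 groups did not overlap, and the RANKL rise was 0.31 ± 0.03 (adjusted p = 3.9e-08). Sh3pxd2a, for the Src substrate Tks5 (gene ID 14218, chromosome 19, 47260174 to 47464612), was at 53.3, 49.4 and 50.1 CPM with M-CSF and 96.5, 83.1 and 75.5 CPM with RANKL. The BMS309403 libraries gave 62.4, 70.0 and 75.8 CPM, so the highest of them passed the lowest RANKL library, and the RHC80267 libraries gave 104, 115 and 106 CPM. RANKL raised Sh3pxd2a by 0.74 ± 0.07 (adjusted p = 1.8e-08).

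Cttn and Gsn encode proteins that act on the actin filaments themselves. Cttn, for cortactin, which holds branched actin together and is a target of Src (gene ID 13043, chromosome 7, 144435724 to 144471560), was the least abundant member by TPM with M-CSF and measured 1.51, 2.46 and 2.08 CPM there, a sum of 108 counts. It reached 17.6, 14.8 and 13.8 CPM with RANKL and 32.3, 32.5 and 33.1 CPM with RHC80267. With BMS309403 it was 13.9, 11.5 and 11.2 CPM, and the highest of these lay just above the lowest RANKL library. RANKL raised Cttn by 2.93 ± 0.14 (adjusted p = 9.1e-14). Gsn, for gelsolin, which severs and caps filaments (gene ID 227753, chromosome 2, 35256359 to 35307902), was the most abundant member by TPM in every group. It measured 466, 467 and 503 CPM with M-CSF, 466, 463 and 444 CPM with RANKL, and 452, 417 and 459.6 CPM with BMS309403. Only the RHC80267 libraries, at 517, 524 and 520.0 CPM, lay above all others. The RANKL difference for Gsn was -0.06 ± 0.04 (95% interval -0.15 to 0.02, adjusted p = 0.18). These groups did not overlap although Gsn was not called, as the highest RANKL library, at 465.9 CPM, lay just below the lowest M-CSF library.

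Myo10 encodes an unconventional myosin that carries cargo along actin bundles and links actin to microtubules (gene ID 17909, chromosome 15, 25622550 to 25813673). It had 36.8, 31.5 and 34.2 CPM with M-CSF and 131, 118 and 110.0 CPM with RANKL. The BMS309403 libraries had 91.2, 97.9 and 109 CPM, all under the RANKL libraries, and the RHC80267 libraries 221, 229 and 221 CPM. The RANKL rise was 1.81 ± 0.07 (adjusted p = 1.3e-15). Across the 9, the calls and directions for RANKL held when any M-CSF or RANKL library was left out.

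**Figure D2:**
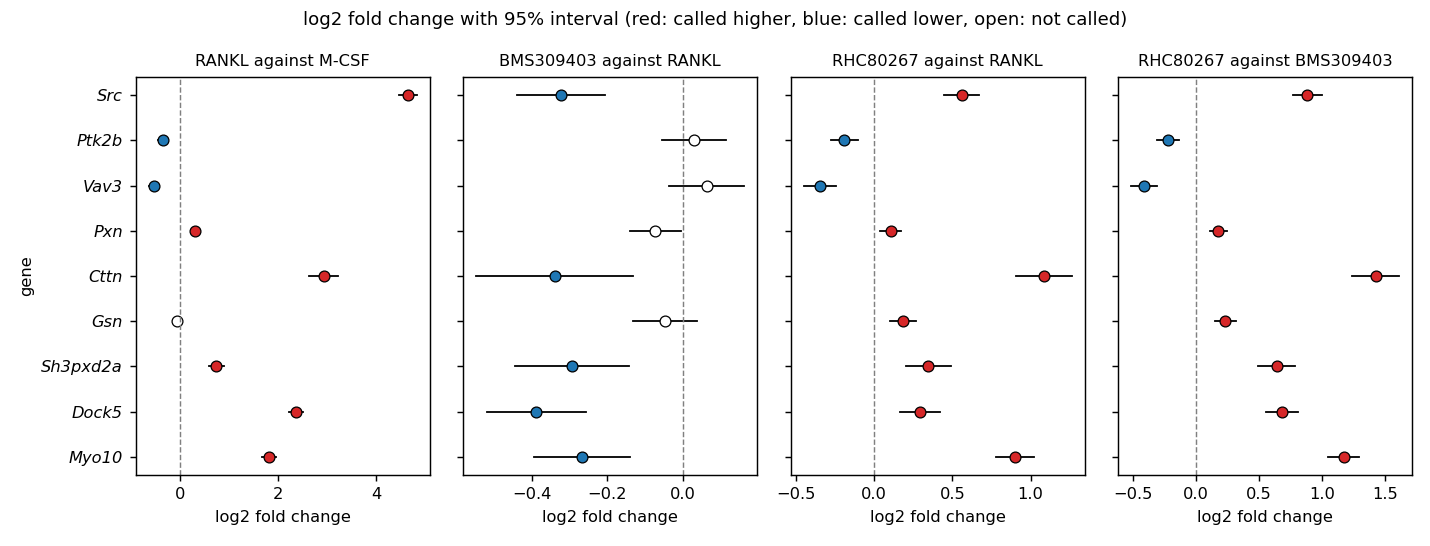
Log2 fold changes of the 9 regulators in 4 comparisons, with 95% intervals; the x axis differs between panels, filled points are called (red higher, blue lower) and open points are not. RANKL changes span -0.54 to 4.65, BMS309403 changes -0.39 to 0.06, and RHC80267 changes against RANKL -0.35 to 1.08.

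With BMS309403 on top of RANKL, 5 of the 9 regulators fell, in a comparison where only 7.23% of all tested genes were called (3.49% higher and 3.74% lower). The 5 were Dock5, Cttn, Src, Sh3pxd2a and Myo10. Their falls were small, between 0.27 and 0.39 on the log2 scale, and every BMS309403 library stayed above every M-CSF library for each of them, with Sh3pxd2a the closest by ratio (62.4 against 53.3 CPM). No member was called higher by edgeR, by DESeq2 (3.91% of its genes higher) or by limma-voom (3.53%), and 0 were higher at an unadjusted p below 0.05 in edgeR (9.40% of genes), against 6 lower (10.4% of genes). The median of the 9 was -0.27, against -0.01 over all genes tested.

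Dock5 fell by 0.39 ± 0.06 (adjusted p = 0.00070) and Src by 0.32 ± 0.06 (adjusted p = 0.0011). For both, the BMS309403 and RANKL libraries did not overlap and the call held whichever of the 6 libraries was left out. Myo10 fell by 0.27 ± 0.06 (adjusted p = 0.0096), also without overlap, though the share of all tested genes without overlap was not counted. Its call ended without RANKL replicate 1 (-0.20, adjusted p = 0.10), BMS309403 replicate 1 (-0.21, adjusted p = 0.060) or BMS309403 replicate 2 (-0.25, adjusted p = 0.056). Sh3pxd2a fell by 0.29 ± 0.07 (adjusted p = 0.016) with groups that overlapped. Leaving out the same libraries ended its call, at -0.19 (adjusted p = 0.16), -0.22 (adjusted p = 0.093) and -0.29 (adjusted p = 0.062). Cttn fell by 0.34 ± 0.10 (adjusted p = 0.041), and its call ended without RANKL replicate 1 (-0.23, adjusted p = 0.31) or 2 (-0.36, adjusted p = 0.070), or without BMS309403 replicate 2 (-0.29, adjusted p = 0.19) or 3 (-0.27, adjusted p = 0.17). The count of members that fell was 2 without RANKL replicate 1, 3 without BMS309403 replicate 1 and 2 without BMS309403 replicate 2.

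The other 4 members were not called with BMS309403. Pxn had a difference of -0.07 ± 0.03 (95% interval -0.14 to -0.0048, adjusted p = 0.21), with BMS309403 libraries that all lay below the RANKL libraries. Gsn had -0.05 ± 0.04 (interval -0.13 to 0.04, adjusted p = 0.58). Ptk2b had 0.03 ± 0.04 (interval -0.06 to 0.11, adjusted p = 0.78) and Vav3 0.06 ± 0.05 (interval -0.04 to 0.16, adjusted p = 0.53). The intervals of these 4 reach no further than 0.16 from 0 on the log2 scale. The authors' deposited table gave q below 0.05 to 3 members here, all lower, as for 1.32% of its genes with a q-value: Src (q = 0.00023), Dock5 (q = 4.4e-06) and Myo10 (q = 0.0083).

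Among the RANKL libraries, replicate 1 was the highest of the 3 for 8 of the 9 members and replicate 3 the lowest for 8. Replicate 1 also had the highest summed osteoclast markers of its group, 10060 CPM against 8487 and 8109 CPM. In the BMS309403 group, replicate 3 was the highest for 8 of the 9 members and had the highest osteoclast marker sum of its group, 7463 CPM. Of the 8 osteoclast markers, 6 fell with BMS309403 (3.74% of all tested genes did) and 2 were not called. Of the 8 macrophage markers, 3 rose (3.49% of all tested genes did) and 5 were not called, and their sum was 26450 to 28070 CPM. The part of these marker levels in the members' differences was not tested.

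With RHC80267 on top of RANKL, 7 of the 9 regulators rose and 2 fell, in a comparison where 49.9% of all tested genes were called (26.9% higher and 23.0% lower). Cttn more than doubled, at 2.12-fold, and Myo10 rose 1.87-fold. Src, Sh3pxd2a, Dock5, Gsn and Pxn rose by less, and Vav3 and Ptk2b fell. The median of the 9 was 0.29, against 0.02 over all genes tested. The calls of all 9 held when any RANKL or RHC80267 library was left out.

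Cttn rose by 1.08 ± 0.09 (adjusted p = 9.0e-10), Myo10 by 0.90 ± 0.06 (adjusted p = 3.4e-11) and Src by 0.56 ± 0.05 (adjusted p = 1.9e-08). Sh3pxd2a rose by 0.35 ± 0.07 (adjusted p = 0.00029) and Dock5 by 0.29 ± 0.06 (adjusted p = 0.00042). The RHC80267 and RANKL libraries did not overlap for any of the 9, but the share of all tested genes without overlap was not counted. Gsn, which RANKL had not moved detectably, rose by 0.19 ± 0.04 (adjusted p = 0.00069). Pxn rose by 0.11 ± 0.03 (adjusted p = 0.011), but by 0.08 (adjusted p = 0.054) in a fit of only the groups compared. Its q in the authors' deposited table was 0.081. Vav3 fell by 0.35 ± 0.05 (adjusted p = 5.1e-06) and Ptk2b by 0.19 ± 0.04 (adjusted p = 0.00059).

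All 8 osteoclast markers rose with RHC80267 (26.9% of all tested genes did). The summed macrophage markers were 19210 to 20300 CPM, below every RANKL library, but most of that sum is Lyz2, which fell from a mean of 19090 to 14340 CPM. Of the 8 macrophage markers 4 fell, 2 were not called and 2 rose (23.0% of all tested genes fell and 26.9% rose). The 2 that rose were Mertk (0.62 ± 0.06) and Cx3cr1 (0.18 ± 0.07). Neutrophil markers summed to 695 to 1037 CPM with RHC80267 and 1454 to 1664 CPM with RANKL. Stromal markers (11 of the 12 listed were in the table) summed to 76.1, 28.7 and 26.7 CPM with RHC80267 and to 19.1 to 29.6 CPM with RANKL, where Alpl was at 0. RHC80267 replicate 1, the library with the highest stromal sum, was the lowest of its 3 for 6 members. Endothelial markers summed to 5.81 to 6.73 CPM with RHC80267 and 15.8 to 19.1 CPM with RANKL (Tek was at 0 in both), and lymphoid markers to 1.09 to 1.80 CPM and 3.72 to 5.74 CPM. Megakaryocyte and erythroid markers summed to 117.1 to 119.7 CPM and 111 to 114 CPM, a sum made mostly of Pf4. Pf4 rose by 0.46 ± 0.05. The other 5 of the 6 tested fell (23.0% of all tested genes did), Ppbp by 1.80 ± 0.15. The part of the other marker sums in the members' differences was not tested.

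Set directly against each other, the 2 inhibitors at 1 µM differed for all 9 regulators, with 7 higher and 2 lower under RHC80267. In this comparison 55.5% of all tested genes were called (30.1% higher and 25.5% lower). None of the 9 had overlapping groups, but the share of all tested genes without overlap was not counted here either. Cttn differed most, by 1.42 ± 0.09 (adjusted p = 1.3e-11), then Myo10 by 1.17 ± 0.06 (adjusted p = 3.6e-13) and Src by 0.88 ± 0.05 (adjusted p = 1.1e-11). Dock5 was higher by 0.68 ± 0.06 and Sh3pxd2a by 0.64 ± 0.07. Gsn (0.23 ± 0.04) and Pxn (0.18 ± 0.03) were higher by less, while Ptk2b (-0.22 ± 0.04) and Vav3 (-0.41 ± 0.05) were lower. This comparison uses no RANKL-only library.

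Most members belong to a family in which another gene dominated in the macrophages, and the balance within the families shifted. TPM, the authors' length-scaled unit, was used for levels between genes. Among the Src family kinases, Src made up 0.61% ± 0.02 (SD, n = 3) of the summed TPM with M-CSF, 16.2% ± 1.1 with RANKL, 13.1% ± 0.9 with BMS309403 and 27.1% ± 0.9 with RHC80267. Lyn, a kinase of myeloid signalling, led the family in every group, at 224 TPM with M-CSF and 127 TPM with RHC80267, where Src was at 82.9 TPM. With RANKL, Lyn fell by 0.47 ± 0.04 and Fyn by 0.51 ± 0.06 on the log2 scale. Fgr rose by 1.71 ± 0.09 with RANKL and fell by 0.56 ± 0.08 with RHC80267 against RANKL, a direction opposite to that of Src.

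**Figure D3:**
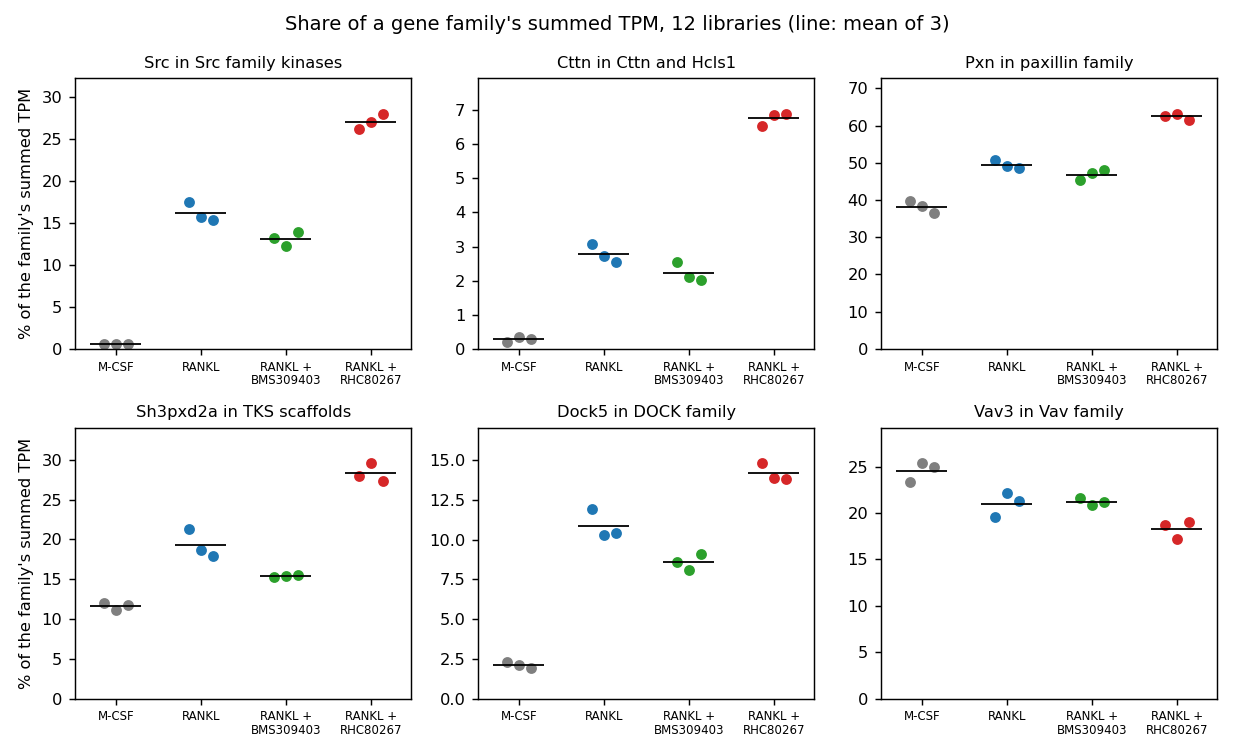
Share of a family's summed TPM held by the member, in percent, for 6 families and 12 libraries; lines are group means and each y axis starts at 0. The shares of Src, Cttn, Pxn, Sh3pxd2a and Dock5 are lowest with M-CSF and highest with RHC80267, and the share of Vav3 runs the other way.

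Cttn and Hcls1, its relative of blood cells, showed the same kind of shift. Hcls1 was at 366 TPM with M-CSF and 243 TPM with RHC80267, while Cttn went from 1.05 to 17.6 TPM. Cttn thus remained a minor part of the pair, 0.29% with M-CSF, 2.78% with RANKL, 2.21% with BMS309403 and 6.76% with RHC80267. Hcls1 fell by 0.38 ± 0.04 with RANKL and by a further 0.25 ± 0.04 with RHC80267 against RANKL.

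Pxn rose from 38.2% of the paxillin family with M-CSF to 49.5% with RANKL and 62.4% with RHC80267. Its leukocyte relative Lpxn fell by 0.37 ± 0.05 with RANKL and by 0.66 ± 0.05 with RHC80267 against RANKL. Sh3pxd2a went from 11.6% to 19.3% of the TKS scaffolds with RANKL and to 28.3% with RHC80267. Sh3pxd2b, which encodes Tks4, fell by 0.13 ± 0.04 with RANKL and by 0.35 ± 0.04 with RHC80267 against RANKL. With BMS309403 these relatives were not called, at 0.01 ± 0.04 for Hcls1, 0.09 ± 0.05 for Lpxn and 0.10 ± 0.04 for Sh3pxd2b.

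Dock5 made up 2.11% of the summed TPM of the DOCK genes with M-CSF, 10.9% with RANKL, 8.59% with BMS309403 and 14.2% with RHC80267. Of the 11 DOCK genes tested, 3 rose with RANKL and 7 fell (31.4% and 29.8% of all tested genes did). Dock2, the main Rac exchange factor of leukocytes, fell by 0.22 ± 0.04. Dock10 rose by 0.21 ± 0.04. Dock5 and Dock10 were the 2 that fell with BMS309403 (3.74% of all tested genes did), Dock10 by 0.15 ± 0.04 (adjusted p = 0.038).

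Ptk2b held 94.6% to 96.7% of the FAK family's TPM in the group means, and Ptk2, which encodes FAK, was between 3.38 and 4.21 TPM in the group means and rose by 0.26 ± 0.10 with RANKL (adjusted p = 0.025). Vav3 held 24.6% of the Vav family with M-CSF and 18.3% with RHC80267. Vav1 led that family at 83.7 TPM with M-CSF and fell by 0.33 ± 0.04 with RANKL, and Vav2 was not called (0.12 ± 0.06, adjusted p = 0.12). Gsn fell from 27.1% to 18.5% of the gelsolin family with RANKL although its own level was not called. In that family Capg, a capping protein, rose by 0.65 ± 0.04 and Scin, the severing protein adseverin, rose by 6.91 ± 0.21, from a sum of 26 counts with M-CSF. Scin fell by 0.41 ± 0.09 with BMS309403 and rose by 0.29 ± 0.09 with RHC80267, both against RANKL. Myo10 went from 35.7% to 71.4% of its group of tail-domain myosins with RANKL and to 79.4% with RHC80267, where Myo7a was at 13.7 TPM.

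The other podosome genes were counted in 7 lists that hold 129 genes, of which 125 were tested. With RANKL 52 rose and 35 fell (31.4% and 29.8% of all tested genes did), and the median was 0.04. With BMS309403 2 rose and 13 fell (3.49% and 3.74% of all tested genes), with a median of -0.01. With RHC80267 against RANKL 32 rose and 49 fell (26.9% and 23.0% of all tested genes), with a median of -0.03. With RHC80267 against BMS309403 37 rose and 47 fell (30.1% and 25.5% of all tested genes).

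Integrins carry the signal from the matrix. Of 7 chains tested, 5 rose and 1 fell with RANKL (31.4% and 29.8% of all tested genes did). Itga2, a chain of the collagen receptor, rose by 5.02 ± 0.17, from a mean of 0.18 TPM with M-CSF. Itgb3, a chain of the vitronectin receptor of osteoclasts, rose by 2.81 ± 0.10. Itgb5 fell by 0.98 ± 0.04. With BMS309403 3 chains fell (3.74% of all tested genes did). Itga2 fell by 0.54 ± 0.09, Itgb3 by 0.34 ± 0.08 and Itgav by 0.30 ± 0.06. With RHC80267 2 rose and 3 fell (26.9% and 23.0% of all tested genes did). Among them were Itgb3 (1.22 ± 0.08), Itga2 (0.89 ± 0.08) and the macrophage chain Itgam (-0.56 ± 0.03).

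Of 17 regulators and partners of Src, 7 rose and 9 fell with RANKL (31.4% and 29.8% of all tested genes did). Bcar1, for the Src substrate p130Cas, rose by 3.84 ± 0.27, from a sum of 14 counts with M-CSF. The phosphatase genes Ptpra and Ptprj fell by 0.62 ± 0.04 and 0.47 ± 0.04. Bcar1 was the single gene of this list called with BMS309403 (7.23% of all tested genes were). It fell by 0.76 ± 0.17 (adjusted p = 0.010), a call that ended without RANKL replicate 1 or BMS309403 replicate 2. With RHC80267 5 rose and 4 fell (26.9% and 23.0% of all tested genes did). They included the phosphatase gene Ptprc (-0.60 ± 0.04), the PI3-kinase subunit gene Pik3r1 (0.26 ± 0.04) and the adaptor gene Nedd9 (-0.46 ± 0.07).

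Of 25 genes for actin nucleation and turnover, 5 rose and 9 fell with RANKL (31.4% and 29.8% of all tested genes did). With RHC80267 against RANKL 2 rose and 11 fell (26.9% and 23.0% of all tested genes did). The 5 became 3 without M-CSF replicate 2. The 2 became 0 without RANKL replicate 2, RANKL replicate 3 or RHC80267 replicate 1, and 1 without RANKL replicate 1 or RHC80267 replicate 3, and DESeq2 had 0. Ssh2, a cofilin phosphatase gene, fell by 1.14 ± 0.06 with RANKL, and Pfn1 (0.36 ± 0.03) and Actr3 of the Arp2/3 complex (0.39 ± 0.04) rose. With RHC80267 Coro1a fell by 0.55 ± 0.04, Diaph1 by 0.43 ± 0.05 and Arpc5 by 0.28 ± 0.03. Arpc3 was the gene called with BMS309403 (0.15 ± 0.04, adjusted p = 0.024), where 7.23% of all tested genes were called. The list held no called gene without RANKL replicate 1 or 2 or BMS309403 replicate 2 and 2 without BMS309403 replicate 1. Cttn, whose protein binds the Arp2/3 complex, rose in the same RHC80267 libraries.

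Of 21 adhesion ring genes, 11 rose and 4 fell with RANKL (31.4% and 29.8% of all tested genes did). Without M-CSF replicate 3, 7 rose. The actin linkers Vcl (1.10 ± 0.07) and Actn1 (0.93 ± 0.05) and the paxillin partner Git1 (0.81 ± 0.04) were among those that rose. Git1 fell by 0.22 ± 0.04 and Actn1 by 0.23 ± 0.05 with BMS309403, and Evl rose by 0.26 ± 0.05. In that comparison 3 of the 21 were lower and 1 was higher (3.74% and 3.49% of all tested genes were). With RHC80267 5 rose and 8 fell (26.9% and 23.0% of all tested genes did). Among them were Git1 (0.42 ± 0.04), its partner Arhgef7 (-0.51 ± 0.04) and Zyx (-0.55 ± 0.05).

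Of 15 other myosins, 8 rose and 2 fell with RANKL (31.4% and 29.8% of all tested genes did). Without M-CSF replicate 3, 1 fell. The class I motors Myo1d (5.56 ± 0.15) and Myo1e (1.34 ± 0.06) were among those that rose. Myo1d started from a mean of 0.72 TPM with M-CSF. With BMS309403 3 of the 15 fell (3.74% of all tested genes did). Among them, Myo1d fell by 0.33 ± 0.08 and Myo1e by 0.32 ± 0.05. With RHC80267 5 rose and 7 fell (26.9% and 23.0% of all tested genes did). Myo1d rose by 1.10 ± 0.08 and Myo1e by 0.49 ± 0.05, and the light chain gene Myl12a fell by 0.42 ± 0.04.

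Of 18 scaffold, bundling and cap genes, 9 rose and 4 fell with RANKL (31.4% and 29.8% of all tested genes did). With RHC80267 against RANKL 4 rose and 11 fell (26.9% and 23.0% of all tested genes did). The number that fell with RANKL was 2 without M-CSF replicate 1, M-CSF replicate 3 or RANKL replicate 3. Mmp14, for the membrane protease of podosomes, rose by 2.28 ± 0.07 and the tropomyosin gene Tpm1 by 1.20 ± 0.05 with RANKL, while Plek fell by 0.60 ± 0.05. With RHC80267 Lsp1 fell by 1.22 ± 0.06, Plek by 0.98 ± 0.05 and the core receptor Cd44 by 0.62 ± 0.04. With BMS309403 0 of the 18 were called by edgeR (7.23% of all tested genes were), DESeq2 or limma-voom. At an unadjusted p below 0.05 in edgeR, 1 was higher and 3 were lower (9.40% and 10.4% of all tested genes were). Leaving out libraries moved the BMS309403 counts of these lists: the adhesion ring genes that fell numbered 1 without RANKL replicate 1 or BMS309403 replicate 2 and 5 without RANKL replicate 3. For the other myosins, 5 fell and 1 rose without RANKL replicate 3. Of the scaffold genes, 1 fell without RANKL replicate 3, and 1 fell and 1 rose without BMS309403 replicate 3.

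**Figure D4:**
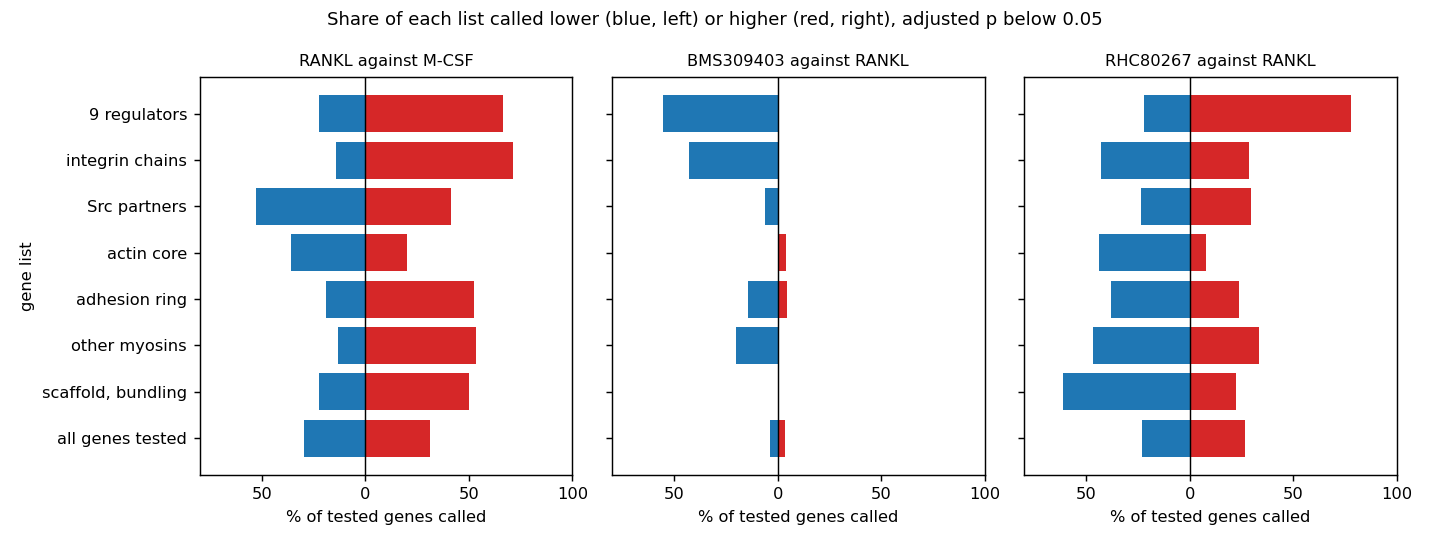
Percent of the tested genes of the 9 regulators and 6 podosome lists called lower (left of 0, blue) or higher (right, red) in 3 comparisons that share the RANKL libraries, with all 12168 tested genes as the last bar. The 9 regulators have 5 of 9 lower with BMS309403 and 7 of 9 higher with RHC80267, while 11 of the 18 scaffold and bundling genes are lower with RHC80267.

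Over the 12 libraries the members themselves fell into patterns, given as a description because the libraries share groups. The Pearson correlation of log2 CPM was 0.99 between Src and Dock5 and 0.99 between Pxn and Myo10. Vav3 followed Ptk2b (0.97) and ran against Myo10 (-0.99). Gsn correlated with Src at 0.06 and with Sh3pxd2a, its closest member, at 0.44.

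For each member, the genes most like it among 9831 with a mean of at least 5 CPM were found by the same correlation. Src came closest to Traf1 (0.9997), Atp6v0d2 (0.9992) and Mmp9 (0.9988). Atp6v0d2 encodes a subunit of the proton pump and Mmp9 a secreted protease, both used as osteoclast markers. Dock5 was nearest to Plxna4 (0.9976), Rasal2 (0.9972) and Itga2 (0.9971), and Myo10 to Plxnd1 (0.9977), Nfatc1 (0.9969) and Pde4dip (0.9968). Nfatc1 encodes the main transcription factor of osteoclast formation. Cttn was nearest to Cnih4 (0.9978), Uqcrfs1 (0.9977) and Atp5g3 (0.9968), the last 2 being genes of the mitochondrial respiratory chain and ATP synthase. Pxn was nearest to Midn (0.9983), Pdha1 (0.9972) and Cs (0.9967), of which Pdha1 and Cs encode enzymes of mitochondrial carbon metabolism. For Sh3pxd2a they were Tns3 (0.9940), Stard7 (0.9898) and Dyrk2 (0.9881), Tns3 being an adhesion adaptor. Vav3 was nearest to Akt2 (0.9933), Slc2a9 (0.9926) and Il4ra (0.9917), and Ptk2b to Kdm5a (0.9901), Fads2 (0.9886) and Slc7a8 (0.9879). Gsn had no neighbour above 0.9594 (Map3k4).

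The length of transcript behind a gene's reads was read from the ratio of its deposited count and FPKM. It varied little among the 12 libraries for Gsn (the longest 1.04% above the shortest), Ptk2b (1.43%), Src (1.54%), Pxn (1.77%) and Cttn (2.24%). The lowest FPKM was 0.54 for Cttn and 1.36 for Src, low enough for rounding of the deposited values to add to their spread. For Sh3pxd2a the spread was 3.46%, for Dock5 4.16%, for Myo10 7.75% and for Vav3 10.6%. The Vav3 mean was 3971 bases with M-CSF, 3970.3 with RANKL, 4053 with BMS309403 and 3866 with RHC80267. The difference in length was not tested.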

How the data were processed

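The 12 mRNA libraries of macrophage cultures were compared in 4 groups of 3. The authors deposited expected counts per gene and library (9.49% to 9.89% of values are not whole), TPM and FPKM, and their own log2 fold changes and q-values, per the file headers. Tools listed per the submitters' processing notes, without role or order, are Bowtie2, RSEM (version 1.3.1) and DESeq2 (version 1.4.5). Positions are on GRCm38. A further 12 columns of per-library values (normalized counts) were not used.

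Counts were rounded, genes of low count removed with filterByExpr by group (4402 of 16570, leaving 12168), libraries scaled by TMM (factors 0.978 to 1.04), and all 12 fitted together in edgeR 4.0.16 (R 4.3.3) on group alone, with 8 residual degrees of freedom and a biological coefficient of variation of 0.0371. Each comparison is a 2-sided contrast in that fit, adjusted by the Benjamini-Hochberg method over all tested genes and called below 0.05. Totals were 17760844 to 18344989 expected counts per library. TPM gave family shares, and deposited counts and FPKM gave transcript lengths. The fit was tested on simulated data.

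All 9 members are named in every comparison, with their families, up to 3 called genes of smallest p per podosome list, and the 3 genes of highest correlation per member (log2 CPM, prior count 2, mean of at least 5 CPM). Some named genes and 1 of the 7 lists are not reported here. The members and lists were chosen with earlier results of these data known. Alternatives were RLE factors, DESeq2 1.42.0, limma-voom (limma 3.58.1), no filter, at least 1 CPM in 3 libraries, only the groups compared, a replicate block and each library left out.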

Additional observations from a re-analysis of the deposited data

How the results depend on the processing

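Over 468 member values under the alternatives, 457 kept their side of the threshold, 11 kept their direction but lost the call, and 0 reversed with a call in either fit. Direction was not always kept where neither fit made a call. Ptk2b with BMS309403 was at 0.03 in the main fit and -0.02 without BMS309403 replicate 3. The lost calls were those of Cttn, Myo10 and Sh3pxd2a with BMS309403 when single libraries were left out, and of Pxn with RHC80267 in a fit of only the groups compared. The cause of these losses was not tested. With BMS309403, 425 genes were called higher and 455 lower. Leaving out each library in turn gave 152 to 473 higher and 111 to 538 lower, lowest without RANKL replicate 1 in both cases, and 2 to 5 members lower. Without BMS309403 replicate 2 the counts were 171 and 145, without RANKL replicate 2 287 were lower, and without BMS309403 replicate 1 299 were lower. Deviations of same-numbered libraries of different groups correlated at -0.0617 to 0.0936 over 12 pairs, 5 of them best with their own number. Such low correlations cannot exclude pairing, because a small shared effect could be hidden in the noise of all genes. Whether the numbers pair the samples is therefore unknown, and the main fit did not treat them as pairs. With the replicate block 437 genes were higher and 422 lower with BMS309403, and 5 members fell as before. For the same comparison DESeq2 called 411 higher and 348 lower, and 5 members lower. Among the members, depth limits mainly Cttn and Src with M-CSF, at 108 and 285 counts over 3 libraries.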
